A study of Homo sapiens with 6 samples.

Results

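The NRF2 antioxidant and detoxification genes are a list of 35 genes: the transcription factor NRF2 (gene NFE2L2), its repressor KEAP1, and 33 enzymes, carriers and other genes known to respond to NRF2. They were found by symbol among the 58870 genes of the count table, and each of the 35 had 1 row. Transcripts were measured by RNA sequencing in WM164, an established human melanoma line, in 6 libraries. In 3 libraries the cells overexpressed green fluorescent protein (GFP), the control, and in 3 they overexpressed T-MGM, a tethered dimer in which the small MAF protein MAFG is joined to the melanocyte factor MITF. All 6 came from the same line grown in the same serum-containing medium, so every result is from a single line. The labels do not say whether the replicates were separate cultures, and p-values then measure only the spread between these libraries.

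NRF2 is a leucine zipper transcription factor that binds DNA as a heterodimer with a small MAF protein (MAFF, MAFG or MAFK). In unstressed cells KEAP1 hands NRF2 to a CUL3 ubiquitin ligase for degradation, and oxidants or electrophiles that modify KEAP1 let it accumulate. The heterodimer binds antioxidant response elements, with the core TGACNNNGC, near genes for glutathione and thioredoxin enzymes, NADPH supply, iron storage and export of conjugated toxins. NRF2 activity is set largely through protein stability, so the NFE2L2 transcript does not by itself report it. MAFG lacks a transactivation domain, and MITF binds E-box motifs such as CACGTG and CATGTG.

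Total counts were 35057239 to 38738065 in the GFP libraries and 44577774 to 59250663 in the libraries labelled T-MGM. At these depths 3 counts, taken as the limit that a count of 0 allows, correspond to 0.0506 to 0.0856 CPM (counts scaled to library depth), for counting error only. The construct was not visible in the counts: MAFG had a log2 fold change of -0.06 (adjusted p = 0.236, DESeq2) and MITF of 0.08, so the counts do not check the labels. Of 11 melanocytic markers, TYRP1 had at most 6 counts in any library and 4 were higher in T-MGM (MITF, SOX10, PMEL and S100A1) and 4 lower (MLANA, TYR, DCT and S100B), DCT the most with 56.4 TPM (abundance scaled for transcript length and depth) in GFP and 8.60 TPM in T-MGM. The summed level of the 11 was 1720 to 1730 TPM in GFP against 1780 to 1850 TPM in T-MGM, and S100A1 went from 545 to 795 TPM within it. On the TPM scale the means of MITF (138 to 133), SOX10 (416 to 403) and PMEL (252 to 237) were lower in T-MGM. Of 6 fibroblast markers 4 were higher in T-MGM (LUM, COL1A1, PDGFRA and PDGFRB), with a summed level of 4.34 to 4.89 TPM in GFP against 5.48 to 7.31 TPM in T-MGM, and COL3A1 had at most 2 counts. Of 6 keratinocyte markers none passed the test and 3 (KRT5, KRT1 and TP63) had at most 3 counts in every library, the summed level of 19.6 to 21.9 TPM being nearly all KRT10. Of 5 leukocyte markers LYZ was lower in T-MGM and PTPRC and CD3E had at most 3 counts in every library, and no endothelial marker passed. The part of these markers in the results below was not tested.

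The response element letters are shown here for 8 members whose transcripts are described below. Windows from 250 bases before to 50 after the start were taken from RefSeq (GRCh38) and matched 26 of the 35 members by symbol. HMOX1, GSR, PRDX1, FTH1, AKR1B10, CBR3, ABCC1, ABCC3 and TRIM16L had no entry. The NQO1 and TALDO1 sites lie outside these windows and come from windows reaching 1000 bases before the start, chosen after seeing the data. Each line gives 29 bases read 5′ to 3′ on the strand that carries the motif, with the motif in capitals.
NQO1: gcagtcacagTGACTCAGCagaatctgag
ME1: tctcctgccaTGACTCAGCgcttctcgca
PIR: agcctcaccgTGACTCAGCgcttcgcggc
TALDO1: acccagggacTGACTCAGCataagcggac
GCLM: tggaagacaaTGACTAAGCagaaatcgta
TXNRD1: agagtcagaaTGACAAAGCagaaatccac
KEAP1: caggtcaccaTGACTAAGCagagccgggc
CBR1: ccagctagccTGACTTTGCagaacccgca

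The first 4 hold TGACTCAGC, a case of the core TGACNNNGC that also contains the AP-1 letters TGACTCA. The NQO1 site lies at chr16:69726997-69727025 (minus strand), at position -455 from the start, and the TALDO1 site at chr11:746501-746529 (plus strand), at -953. The ME1 site is at chr6:83431170-83431198 (minus strand), at -137, and the PIR site at chrX:15493289-15493317 (plus strand), at 27. The GCLM site is at chr1:93909446-93909474 (plus strand), at -34, and the TXNRD1 site at chr12:104286920-104286948 (minus strand), at -102 from an alternative start. The KEAP1 site is at chr19:10502784-10502812 (plus strand), at -31, and the CBR1 site at chr21:36069855-36069883 (minus strand), at -159.

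In the 300-base windows, TGACNNNGC on either strand was found in 10 of the 26 members and in 16.1% of all 27305 genes with a window. TGACTCA was found in 3 members (6.05% of genes), CACGTG in 1, CBR1 (8.77%), and CATGTG in 4 (13.4%). In windows reaching 1000 bases before the start, chosen after seeing the data, TGACTCAGC was found in 4 members and 1.83% of genes, and TGACNNNGC in 15 members and 37.4% of genes. The members were listed as response element genes, so the presence of these letters is a description. Of the 15 members with TGACNNNGC in the longer windows, ME1, TALDO1, KEAP1 and CBR1 were higher in T-MGM. NQO1, GCLM, TXN, TXNRD1, PGD, EPHX1, OSGIN1 and PIR were lower. GCLC and MGST1 did not pass, and GPX2 had no adjusted p.

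The comparison asked whether transcripts of this pathway differed between cells with the tethered dimer and control cells. Counts were compared with DESeq2 over all genes, and a gene passed when its p, adjusted by Benjamini-Hochberg, was 0.05 or less. Normalized counts are counts divided by each library's size factor, and log2 fold changes are T-MGM over GFP. Of the 35 members 28 had an adjusted p, of which 14 were lower in T-MGM, 7 were higher and 7 did not pass. Across the 19135 genes with an adjusted p, 38.4% passed, 19.2% higher and 19.2% lower. Among genes with a mean of 50 or more normalized counts, which include 27 members and all 21 that passed, 54.0% passed, 26.4% higher and 27.6% lower. In 22 of the 28 members all libraries of a group lay above all of the other group, against 46.8% of all genes tested. That share also counts genes with a mean under 50 normalized counts, whereas 27 of the 28 members lay at or above it. The study's methods also ask for a change over 2-fold, which 2 members met (PRDX1 and TRIM16L), against 4.63% of all genes. The median log2 fold change of the 27 members was -0.08, beside -0.01 for all genes at that level, and 8 of the 35 were too low to read. With limma on the TPM values the split was 3 higher and 15 lower, on a scale where the median of all genes moved to -0.13.

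**Figure D1:**
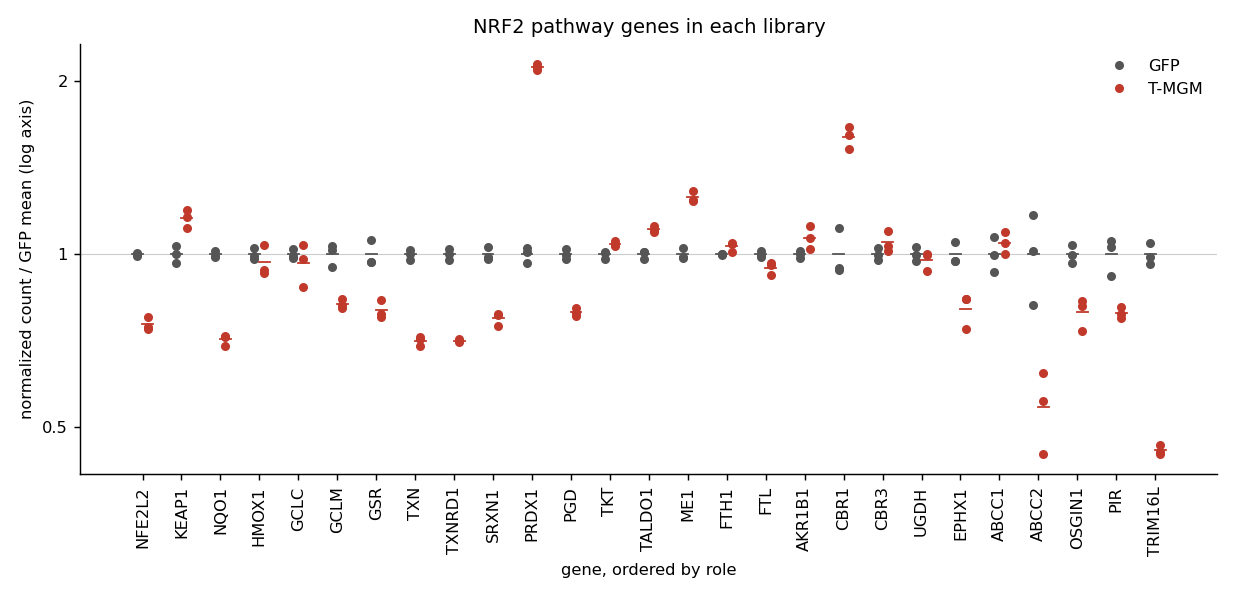
Normalized count in each library divided by the GFP mean of the gene (log axis), for the 27 members with a mean of 50 or more normalized counts. Points are libraries and short lines are group means. The T-MGM points of PRDX1 lie above 2 and those of TRIM16L below 0.5, and most other genes lie within a narrower band.

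**Figure D2:**
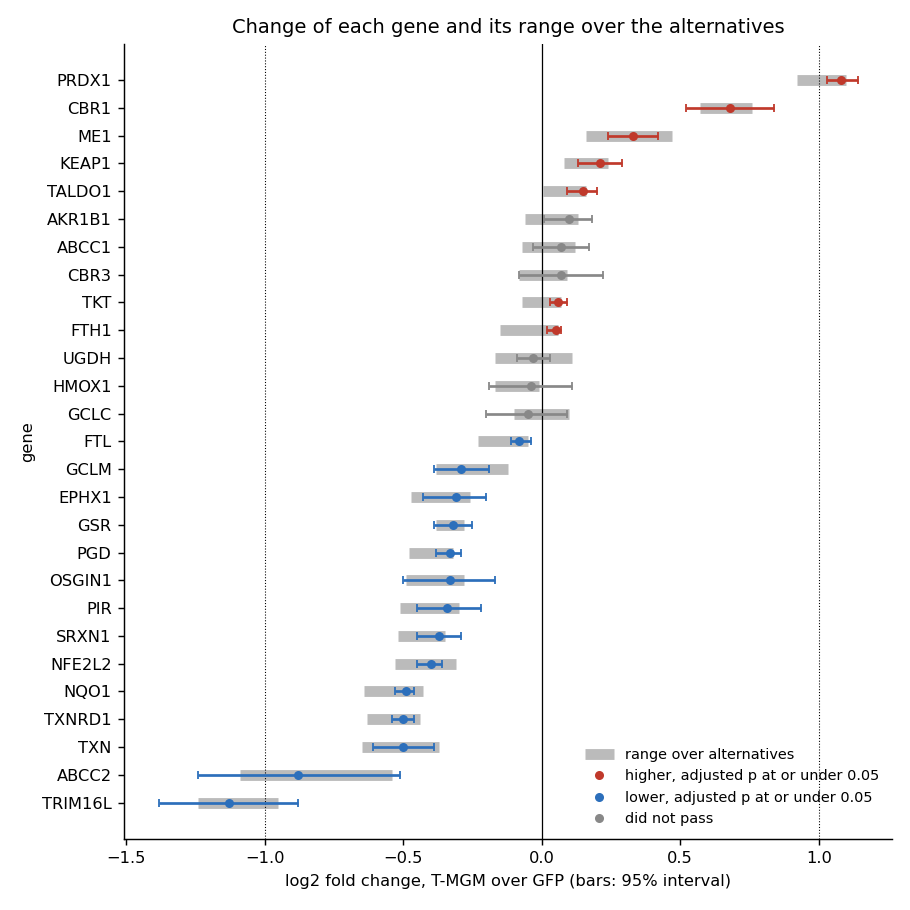
Log2 fold change of each of the same 27 members with its 95% interval from DESeq2 (n = 3 libraries per group), beside the range over the alternative settings in grey. Dotted lines mark a 2-fold change. The grey ranges of AKR1B1, ABCC1, CBR3, TKT, FTH1, UGDH and GCLC cross 0.

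The transcript of NRF2 itself was lower in T-MGM and that of its repressor was higher. NFE2L2 (ENSG00000116044.16; chromosome 2, 177218667 to 177392756, GRCh38) had 8157, 8080 and 8137 normalized counts in GFP against 6086, 6037 and 6310 in T-MGM, a log2 fold change of -0.40 ± 0.02 (SE; adjusted p = 1.67e-62, DESeq2). KEAP1 (ENSG00000079999.14; chromosome 19, 10486125 to 10503558) had 2306, 2225 and 2146 in GFP against 2581, 2660 and 2469 in T-MGM, a log2 fold change of 0.21 ± 0.04 (adjusted p = 3.4e-06, DESeq2). In neither gene did the groups overlap. The KEAP1 call was lost after a correction for GC content and length (0.09, adjusted p = 0.0752) and on TPM values (0.08, adjusted p = 0.283). Exons of NFE2L2 overlap those of HNRNPA3 and AGPS on the opposite strand, whose log2 fold changes were -0.25 and -0.31, and the sources disagree on whether the libraries kept strand. How many reads were shared was not tested.

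Among the quinone and heme enzymes, NQO1 fell and HMOX1 did not pass. NQO1, which reduces quinones without releasing semiquinone radicals, had 22041, 22160 and 22623 normalized counts in GFP against 15459, 16089 and 15987 in T-MGM (ENSG00000181019.13; chromosome 16, 69706996 to 69726668). Its log2 fold change was -0.49 ± 0.02 (adjusted p = 1.16e-165, DESeq2), or 0.71 of the GFP level, and it ranged from -0.64 to -0.43 over all alternatives. HMOX1, the inducible heme oxygenase, had 661, 684 and 653 normalized counts in GFP against 619, 626 and 692 in T-MGM. The groups overlapped, and the 95% interval of its log2 fold change ran from -0.19 to 0.11 (adjusted p = 0.731, DESeq2).

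Glutathione is made by a ligase with a catalytic subunit, GCLC, and a modifier subunit, GCLM, and is kept reduced by GSR. GCLM had 1592, 1618 and 1491 normalized counts in GFP against 1262, 1278 and 1308 in T-MGM, a log2 fold change of -0.29 ± 0.05 (adjusted p = 1.08e-07, DESeq2). GCLC had 769, 793 and 762 in GFP against 681, 803 and 759 in T-MGM, and its log2 fold change of -0.05 did not pass (adjusted p = 0.658, DESeq2). The 95% intervals were -0.39 to -0.19 for GCLM and -0.20 to 0.09 for GCLC, and the difference between the subunits was not tested. GSR had 4732, 4735 and 5181 in GFP against 4060, 3803 and 3838 in T-MGM, a log2 fold change of -0.32 ± 0.04 (adjusted p = 9.78e-19, DESeq2). GPX2, a glutathione peroxidase of gut epithelium, had 0 counts in all 6 libraries, which allows up to 0.0856 CPM. After the correction for GC content and length GCLM stood at -0.12.

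In the thioredoxin branch, TXN, its reductase TXNRD1 and SRXN1 fell, while PRDX1 rose more than any other member. TXN, a small disulfide reductase, had 1326, 1382 and 1360 normalized counts in GFP against 940, 965 and 974 in T-MGM (log2 fold change -0.50 ± 0.06, adjusted p = 1.82e-18, DESeq2). TXNRD1, the selenoenzyme that recharges TXN with NADPH, had 9547, 9722 and 9310 in GFP against 6723, 6784 and 6706 in T-MGM (-0.50 ± 0.02, adjusted p = 3.14e-108, DESeq2). Both were at 0.71 of the GFP level, with no overlap. SRXN1, which repairs over-oxidised peroxiredoxins, had 2886, 2752 and 2772 in GFP against 2200, 2204 and 2108 in T-MGM (-0.37 ± 0.04, adjusted p = 1.36e-20, DESeq2).

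PRDX1, an abundant peroxiredoxin that removes hydrogen peroxide and is recharged by TXN, moved the other way. It had 3675, 3512 and 3724 normalized counts in GFP against 7812, 7611 and 7706 in T-MGM, a 2.12-fold rise with a 95% interval of 1.03 to 1.14 on the log2 scale (ENSG00000117450.14; chromosome 1, 45510914 to 45542732). Its deposited TPM were 91.5, 88.4 and 94.2 in GFP against 176, 174 and 172 in T-MGM, so the groups stood apart in both tables. Its adjusted p was too small for the software's number format. On log2(TPM + 1) its log2 fold change was 0.92, under 2-fold. MMACHC, whose exons overlap PRDX1 on the opposite strand, had 681 normalized counts in GFP against 639 in T-MGM.

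NADPH drives both reductase systems, and its 4 members did not move together. PGD, an oxidative enzyme of the pentose phosphate pathway, had 8142, 8247 and 8456 normalized counts in GFP against 6680, 6558 and 6478 in T-MGM (log2 fold change -0.33 ± 0.02, adjusted p = 9.4e-45, DESeq2). ME1, the cytosolic malic enzyme, rose from 1633, 1569 and 1579 to 1979, 1972 and 2056 (0.33 ± 0.04, adjusted p = 1.37e-12, DESeq2). The direction was opposite in these 2 genes, and the size of the ME1 change depended on the setting (0.16 on log2(TPM + 1) and 0.47 after the correction for GC content and length). TALDO1 and TKT, enzymes of the non-oxidative branch, had log2 fold changes of 0.15 (adjusted p = 2.89e-07, DESeq2) and 0.06 (adjusted p = 0.000697, DESeq2). TKT turned to -0.07 on TPM values and -0.04 after the correction for GC content and length, and TALDO1 did not pass on TPM values (0.0044).

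The ferritin subunits were the most abundant members and changed little. FTH1, the heavy chain that oxidises iron for storage, had 52933, 53040 and 52809 normalized counts in GFP against 55084, 53475 and 55481 in T-MGM. Its log2 fold change of 0.05 ± 0.01 (adjusted p = 0.00297, DESeq2) turned to -0.01 with total counts as size factors. On log2(TPM + 1) FTH1 passed as lower (-0.15, adjusted p = 0.00133, limma). FTL, the light chain, had 22813, 23346 and 23031 in GFP against 22104, 21211 and 22284 in T-MGM, with a log2 fold change of -0.08 ± 0.02 (adjusted p = 0.000108, DESeq2). BEST1, on the opposite strand of FTH1, rose with a log2 fold change of 0.61. FTH1, FTL, TXN and PRDX1 have processed pseudogenes, and reads that align to both are left out of counts of uniquely aligned reads, so their absolute counts are uncertain.

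Of the 7 aldo-keto and carbonyl reductases, which reduce reactive aldehydes and ketones, 1 passed. CBR1, a carbonyl reductase that acts on quinones and prostaglandins, had 535, 453 and 456 normalized counts in GFP against 803, 733 and 775 in T-MGM, a 1.60-fold rise (log2 0.68 ± 0.08, adjusted p = 3.64e-15, DESeq2). Its neighbour and paralogue CBR3 had 612, 594 and 584 in GFP against 655, 605 and 618 in T-MGM, and the groups overlapped (log2 0.07, adjusted p = 0.548, DESeq2). Exons of CBR1 overlap those of ENSG00000289001 on the same strand and CBR1-AS1 on the opposite strand, and how many reads were shared was not tested. AKR1B1, aldose reductase, lay near the threshold with a log2 fold change of 0.10 (adjusted p = 0.0569, DESeq2), and it passed with edgeR (adjusted p = 0.0498) and with TMM factors in DESeq2 (adjusted p = 0.0294). AKR1B10 and the related genes AKR1C1, AKR1C2 and AKR1C3 of the AKR1C group are strong NRF2 targets in some carcinomas. Here they had at most 6 counts in any library, so no change was detectable at this depth.

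EPHX1, which hydrolyses epoxides, was the conjugation and hydrolysis gene that passed. It had 1572, 1457 and 1453 normalized counts in GFP against 1108, 1250 and 1247 in T-MGM (log2 fold change -0.31 ± 0.06, adjusted p = 2.98e-07, DESeq2), while TMEM63A on the opposite strand had a log2 fold change of 0.37. UGDH, which makes the UDP-glucuronate used for conjugation, stood at -0.03 with a 95% interval of -0.09 to 0.03, and its direction depended on the setting: it passed as higher after the correction for GC content and length (0.11, adjusted p = 0.00197, DESeq2) and as lower with total counts as size factors (-0.08, adjusted p = 0.0214, DESeq2) and on log2(TPM + 1) (-0.16, adjusted p = 0.0489, limma). MGST1 and GSTM3, glutathione transferases, had at most 8 and 4 counts in any library.

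Among the efflux pumps that export glutathione conjugates, ABCC2 was lower and ABCC1 did not pass. ABCC2 had 184, 147 and 211 normalized counts in GFP against 81.2, 100 and 112 in T-MGM, a log2 fold change of -0.88 ± 0.19 (adjusted p = 1.2e-05, DESeq2). The groups did not overlap, but its deposited TPM ranged from 0.73 to 1.91 in GFP and it did not pass there, at -0.54 on log2(TPM + 1) (adjusted p = 0.0681, limma) and -1.09 on log2(TPM + 0.1) (adjusted p = 0.0556, limma). ABCC1 had 1774, 2038 and 1895 normalized counts in GFP against 1992, 1908 and 2081 in T-MGM, which overlapped (log2 0.07, adjusted p = 0.31, DESeq2). ABCC3 had at most 3 counts in any library.

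The 3 remaining genes were all lower in T-MGM. TRIM16L, a TRIM16-like gene, had 307, 316 and 334 normalized counts in GFP against 149, 143 and 145 in T-MGM, or 0.46 of the GFP level (log2 -1.13 ± 0.13, adjusted p = 2.13e-17, DESeq2). Its parent gene TRIM16, of near-identical sequence, had 472, 515 and 454 in GFP against 311, 314 and 300 in T-MGM (log2 -0.64, adjusted p = 7.23e-10, DESeq2). The counts are of uniquely aligned reads, so reads that align to both TRIM16L and TRIM16 are left out of them. On log2(TPM + 1) TRIM16L stood at -0.95, under 2-fold. In GENCODE 44 another entry named TRIM16L overlaps its exons on the same strand, and how many reads were shared was not tested. OSGIN1, an oxidative stress growth inhibitor, had 597, 617 and 643 in GFP against 455, 504 and 514 in T-MGM (-0.33 ± 0.08, adjusted p = 0.000295, DESeq2). Exons of MLYCD overlap those of OSGIN1 on the same strand. MLYCD had 446 normalized counts in GFP against 504 in T-MGM (log2 0.17, adjusted p = 0.211, DESeq2). How reads were divided between OSGIN1 and MLYCD was not tested. PIR, the iron-binding nuclear protein pirin, had 1469, 1434 and 1279 in GFP against 1080, 1098 and 1130 in T-MGM (-0.34 ± 0.06, adjusted p = 4.68e-08, DESeq2).

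Per length, the iron storage genes stood at the top and GPX2 was listed at 0. The deposited TPM, averaged over the 6 libraries, were 1840 for FTH1, 623 for FTL, 202 for NQO1, 163 for TKT and 133 for PRDX1. TALDO1 followed at 96.1 TPM, PGD at 74.3 TPM and NFE2L2 at 64.2 TPM. In all, 20 members had a mean of at least 10 TPM and 9 had a mean under 1 TPM. PRDX1 stood below TKT in GFP (91.4 ± 2.91 against 167 ± 5.84 TPM, SD, n = 3) and above it in T-MGM (174 ± 2.16 against 159 ± 3.83 TPM). Levels computed from the counts and exon lengths gave other orders for some genes: NFE2L2 was the 8th by deposited TPM and the 19th by counts per length. The exon length used for NFE2L2 was 14975 bases, against 2446 for its canonical transcript, and the part of this in its order was not tested. Non-coding genes took 38.2% to 38.7% of the deposited TPM in GFP against 40.8% to 42.1% in T-MGM, and their part in the shift of TPM between groups was not tested.

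**Figure D3:**
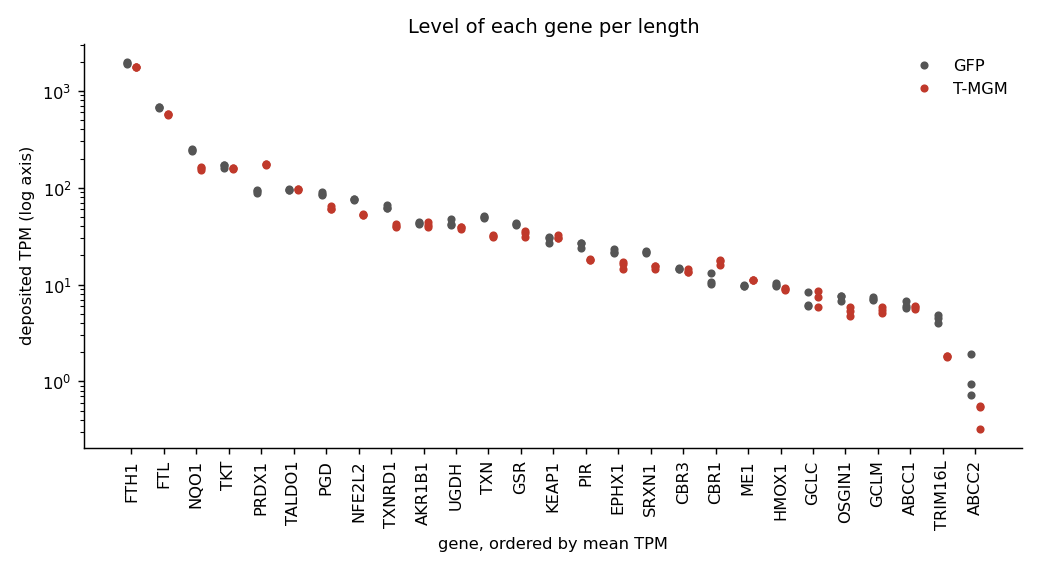
Deposited TPM of each member with a mean above 0.5 TPM in each library (log axis), ordered by mean level, with points for the 3 GFP and 3 T-MGM libraries. FTH1 lies near 1840 TPM and ABCC2 near 0.835 TPM, and PRDX1 is the member whose T-MGM points stand farthest above its GFP points.

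The members were also set beside their chromosomal neighbours. The median log2 fold change of genes within 10 Mb on either side (mean of 50 or more normalized counts, the member left out) ran from -0.25 to 0.29 over the 27 members, a measure added after seeing the data. Around NFE2L2 it was -0.25 over 75 genes, around PGD -0.24, around GCLM -0.23 and around EPHX1 -0.22. The 4 members differed from these medians by -0.15 to -0.06 on the log2 scale. Around TKT it was 0.29 and around FTH1 0.25, above both genes. The neighbours of PRDX1 (-0.08), CBR1 (-0.03), NQO1 (0.06), ABCC2 (0.02) and TRIM16L (0.03) were near 0. The part of the region in these changes was not tested.

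**Figure D4:**
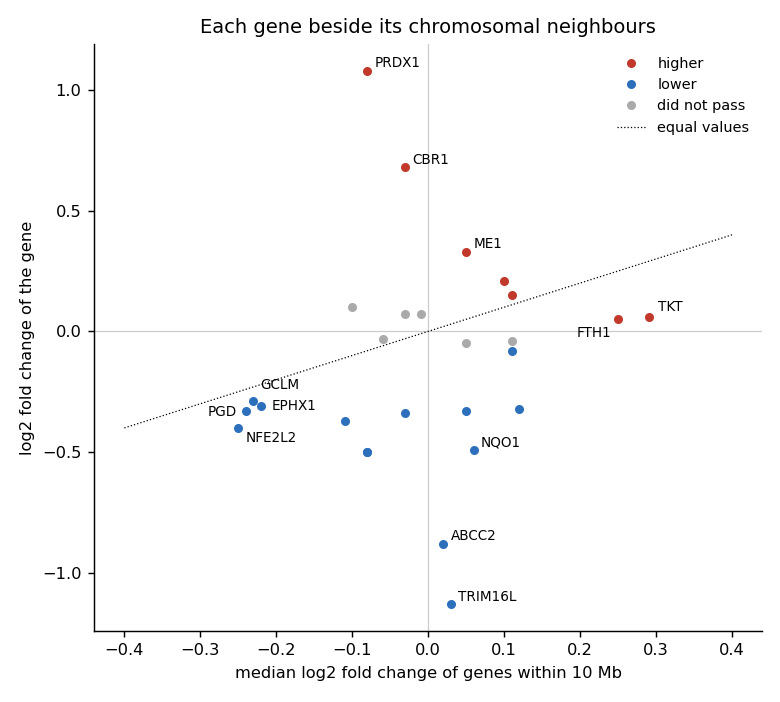
Log2 fold change of each of the 27 members (y axis) against the median of genes within 10 Mb (x axis), with the dotted line at equal values. NFE2L2, PGD, GCLM and EPHX1 sit close to the line at the left, whereas PRDX1, CBR1, ABCC2 and TRIM16L sit far from it near 0 on the x axis.

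Other genes of the pathway that are no members were taken from a list of 105. Of these 91 had an adjusted p, 33 were higher in T-MGM, 24 were lower and 34 did not pass, and 1 passed with a change over 2-fold. Over all genes tested 19.2% were higher and 19.2% lower, and 26.4% and 27.6% at a mean of 50 or more normalized counts. The median log2 fold change of the 86 with a mean of 50 or more normalized counts was 0.03. On log2(TPM + 1) the split was 14 higher and 34 lower. SOD3, the secreted superoxide dismutase, rose from 133, 134 and 175 normalized counts to 4452, 4442 and 4413, a 30.1-fold change whose adjusted p was also too small for the number format. SLC7A11, the cystine importer that limits glutathione synthesis, fell from 3455, 3573 and 3591 to 2034, 2144 and 2166 (log2 -0.74 ± 0.04, adjusted p = 4.21e-88, DESeq2). In both genes the groups stood far apart.

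The counts by group are over the genes with an adjusted p, the shares over all genes being those just given, and they are a description. Among partners and degradation factors 3 of 14 were higher and 4 lower. CUL3, the scaffold of the ligase that uses KEAP1, had a log2 fold change of -0.35, NFE2L3, a relative of NRF2, of -0.45, and DPP3, which binds KEAP1, of 0.35. In glutathione synthesis, transport and peroxidases 6 of 13 were higher, including GLRX (0.65) and GPX1 (0.40), and 2 were lower. Of 19 thioredoxins, peroxiredoxins, catalase and dismutases 10 were higher, including catalase, CAT (0.64), and 3 were lower, including TXNRD3 (-0.48). Leaving out GFP replicate 1 ended the TXNRD3 call (-0.41, adjusted p = 0.0507, DESeq2).

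In the group listed under NADPH supply 3 of 10 were higher, led by the mitochondrial folate enzyme MTHFD1L (0.41). In the same group 5 were lower, led by the mitochondrial malic enzyme ME2 (-0.75) and the cytosolic isocitrate dehydrogenase IDH1 (-0.52). A place in this list does not show that an enzyme makes NADPH in these cells, and NADPH was not measured. Of 13 glutathione S-transferases 3 were higher, including GSTZ1 (0.76) and GSTP1 (0.32), and 2 lower, including MGST2 (-0.37). Of 7 heme and iron genes 2 were higher, including the heme transporter SLC48A1 (0.80), and 4 lower, including biliverdin reductase BLVRA (-0.40) and ferrochelatase FECH (-0.34). Of 15 other detoxification genes 6 were higher and 4 lower, including the pumps ABCG2 (-0.59) and ABCC4 (-0.41). On log2(TPM + 1) DPP3 (0.12, adjusted p = 0.188, limma) and MTHFD1L (0.21, adjusted p = 0.0546, limma) did not pass. In bulk RNA fewer cells that express a gene and less RNA per cell cannot be told apart.

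**Figure D5:**
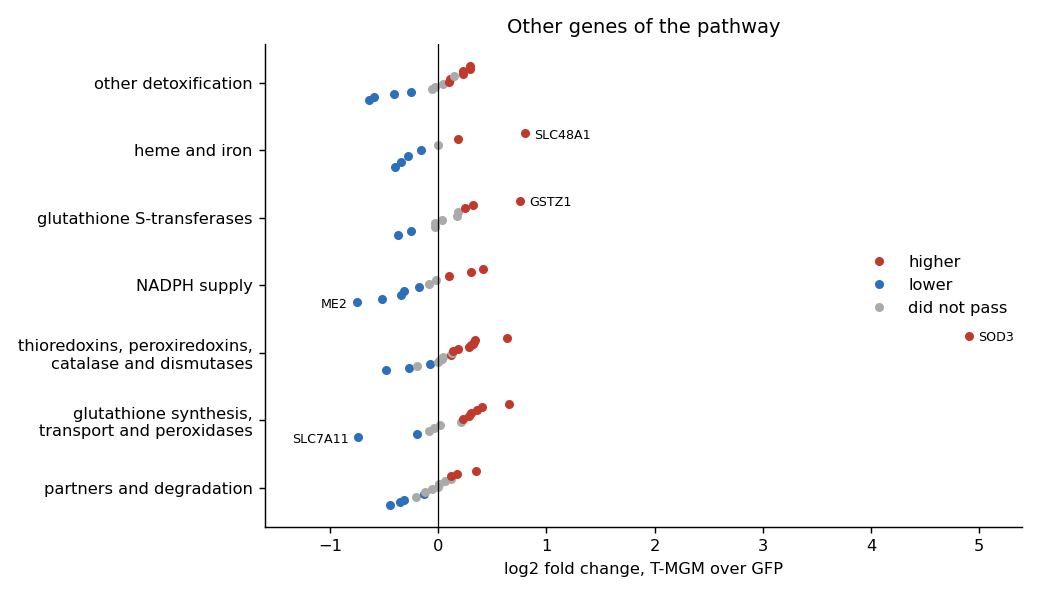
Log2 fold change of the 86 other pathway genes with a mean of 50 or more normalized counts, by group, with each point a gene and its colour the result of the DESeq2 test. SOD3 at 4.91 is the only point beyond 1, and every group holds both higher and lower genes.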

How the data were processed

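The authors trimmed reads (cutadapt 1.8.1), aligned them to GRCh38 (STAR 2.7.7a) and deposited whole-number counts of uniquely aligned reads per gene, with replicates apart. The authors also deposited TPM values (RSEM 1.3.0), rounded. The labels name a non-stranded kit and the methods a strand-specific one, so overlapping genes are uncertain. Columns were matched to samples by title, and 0 value columns were left without a sample. Counts were compared with DESeq2 1.42.0 (R 4.3.3; group as the only term, median-of-ratios factors, 2-sided Wald test, no shrinkage, adjustment over all genes). Alternatives were edgeR 4.0.16, TMM or total-count factors, at least 10 counts in 3 libraries, a replicate block, each library left out, limma 3.58.1 on log2(TPM + 1 or 0.1) with or without a minimum of 0.5 TPM in 3 libraries, and lowess offsets for GC content and length (span 0.3). Positions came from GENCODE 44, which held 99.3% of gene identifiers. The fits were tested on simulated data. Every member is named, and of other pathway genes those over 2-fold and up to 3 with the largest change per group among genes that passed with a mean of 50 or more normalized counts. MAFG, the overlapping genes and the cell type markers are named for the checks they serve. GGT1 and SOD2 (2 rows each), PGLS and GSTT1 (no row) were left out of the other pathway genes. The members and lists were chosen with earlier results of these data known.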

Additional observations from a re-analysis of the deposited data

How the results depend on the processing

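The lower members numbered 14 or 15 under every alternative, but they were not always the same genes. On log2(TPM + 1) ABCC2 did not pass (adjusted p = 0.0681, limma). FTH1 (-0.15, adjusted p = 0.00133, limma) and UGDH (-0.16, adjusted p = 0.0489, limma) passed there as lower. The number of members that passed was 21, and 17 to 22 under the alternatives. With limma on TPM the higher members numbered 3 in place of 7, members over 2-fold 0 (pseudocount 1, with and without a minimum) or 1 (pseudocount 0.1) in place of 2, and the median of members was -0.23, with a median of -0.13 to -0.15 over all genes. The correction for GC content and length gave a median of -0.17. The higher other pathway genes numbered 14 (both pseudocounts) or 9 (no minimum) in place of 33, and those that passed 35 with no minimum in place of 57. Reversed values were those of GCLC (0.09 to 0.10 on TPM, 0.01 after GC content and length, and -0.10 to 0.01 with each library left out), TKT (-0.07 on TPM, -0.04 after GC content and length), FTH1 (-0.15 on TPM, -0.01 with total counts), AKR1B1 (-0.06 on TPM), CBR3 (-0.08 on TPM, -0.07 after GC content and length), UGDH (0.11 after GC content and length), ABCC1 (-0.06 or -0.07 on TPM) and MGST1 (-0.40 to 0.47 without GFP replicate 2, T-MGM replicate 1 or T-MGM replicate 2, at most 8 counts). The cause was not tested. Same-numbered libraries did not deviate together (correlations of -0.00234, -0.0404 and 0.0426, beside -0.0892 to 0.0875 for unlike numbers). Such correlations cannot show whether the cultures were paired. A replicate block left 21 members passing and 53 other pathway genes. Of the 20 members with the highest TPM, 19 were also among the 20 highest by RPKM from counts. The motif followed by A was found in 7 members and 3.94% of genes.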
